A study of Mus musculus with 6 samples.

Results

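Genes that mark cells of the myeloid lineage were followed in N18-Fms cells, which are prostate cancer cells and not macrophages. There were 10 of them, Sfpi1, Emr1, Cd68, Cd14, Itgam, Tyrobp, Fcer1g, Lyz1, Lyz2 and Aif1. They were chosen by name from the 36028 genes with a usable probe on the arrays, and the files hold 13 probes for them. The question was whether cells that carry the receptor of a macrophage growth factor express macrophage genes, and whether these genes respond when the growth factor is added.

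N18-Fms cells, labelled N18-CFMS, are the N18 subclone of C2H, a clonal epithelial line from a prostate tumor of a TRAMP mouse, a strain in which SV40 T antigen drives prostate cancer. The cells carry a luciferase vector and a retrovirally delivered murine c-fms cDNA, which encodes the CSF-1 receptor, and were then sorted for the receptor on their surface. All 3 groups share these modifications. The study found that N18 cells secrete CSF-1, and it proposes autocrine activation of the receptor in receptor-expressing cells without added CSF-1. The comparisons are therefore of added CSF-1, and no array is of N18 cells without the receptor. The unstimulated group received the vehicle according to the labels, and the other groups received CSF-1 at 100 ng/mL for 24 h or 48 h, with 2 arrays in each group and RNA from 2 independent experiments. The study's methods name shorter times than the labels, and the labelled times are used here. A single subclone was profiled, so the values describe this clone.

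Macrophages and neutrophils arise from myeloid progenitors under the control of PU.1, the transcription factor encoded by Sfpi1. CSF-1 is the main survival and differentiation factor of macrophages and acts through CSF-1R. Mature macrophages carry the adhesion receptor F4/80 (Emr1), the lysosomal glycoprotein macrosialin (Cd68), the lipopolysaccharide co-receptor Cd14 and CD11b (Itgam), the alpha chain of complement receptor 3. They also make the adaptors DAP12 (Tyrobp) and the Fc receptor gamma chain (Fcer1g), the antibacterial lysozyme of Lyz2 and the actin-binding protein IBA1 (Aif1). Lyz1 encodes the related lysozyme of intestinal Paneth cells.

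On these arrays a gene is read through a probe of 60 bases, and what the probe holds bears on what can be said of the gene. Positions are those of the files, on mouse build mm9. No annotation of that build was used, so exons and untranslated regions were not assigned. The probes of the transcription factor Sfpi1 (chr2:90939665-90953452, plus strand), the adaptor Tyrobp (chr7:31200651-31202378, plus strand) and the lysozyme Lyz2 (chr10:116719175-116719234, minus strand) are shown because these genes are tied to the myeloid lineage and were seen on few or none of the arrays, and the probe of Emr1 that stood for its gene (chr17:57620350-57620409, plus strand) because it was seen on every array. The Sfpi1 and Tyrobp probes span 13788 and 1728 genomic bases, more than their length, and so join separate stretches of the genome.
Sfpi1: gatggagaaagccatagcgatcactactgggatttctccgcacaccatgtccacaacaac
Tyrobp: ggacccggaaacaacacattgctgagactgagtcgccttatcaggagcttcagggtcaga
Lyz2: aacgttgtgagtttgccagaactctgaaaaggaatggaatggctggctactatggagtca
Emr1: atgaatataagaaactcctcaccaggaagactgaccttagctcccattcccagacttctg

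Itgam has 3 probes, and they are shown because they differ in kind and in what they measured. The first lies at chr7:135212140-135212199, the next at chr7:135260275-135260334 and the last at chr7:135261755-135261814, all on the plus strand. The last begins with 10 CA units, written in capitals in its first 30 bases, and the other probes hold no such run.
Itgam, A_55_P1977926: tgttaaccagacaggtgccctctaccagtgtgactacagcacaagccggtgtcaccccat
Itgam, A_55_P1977929: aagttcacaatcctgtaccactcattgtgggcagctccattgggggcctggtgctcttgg
Itgam, A_55_P1977934, first 30 bases: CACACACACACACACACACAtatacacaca

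Each array had 59305 spots other than controls, of which 58.7% to 72.0% were well above background by the scanner software's own test, and 0 were saturated. Replicate 1 at 24 h came from a separate slide, and the other 5 arrays shared one. That array and the second 48 h replicate had the largest shares of genes well above background, 76.4% and 74.7%, against 64.0% to 68.5% on the other 4. Of the epithelial markers, the keratin genes Krt8, Krt5 and Krt14 were well above background on all 6 arrays, whereas Cdh1, Foxa1, Hoxb13 and Tmprss2 were so on none. With 2 arrays a group, precision is limited throughout. Levels of different probes are not compared, since probes differ in how strongly they hybridize. Fewer cells that express a gene and less RNA per cell cannot be told apart in these RNA samples.

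The myeloid genes split by detection into 3 kinds. Fcer1g, Cd14, Itgam and Emr1 were well above background on all 6 arrays. Cd68, Tyrobp, Lyz1 and Aif1 were so on some arrays, and Sfpi1 and Lyz2 on none. Over all genes, 59.2% were well above background on all 6 arrays, 22.99% on some and 17.8% on none, so the 4, 4 and 2 of 10 myeloid genes held a smaller share of regularly detected genes than the array as a whole. This is a description, without a test.

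**Figure D1:**
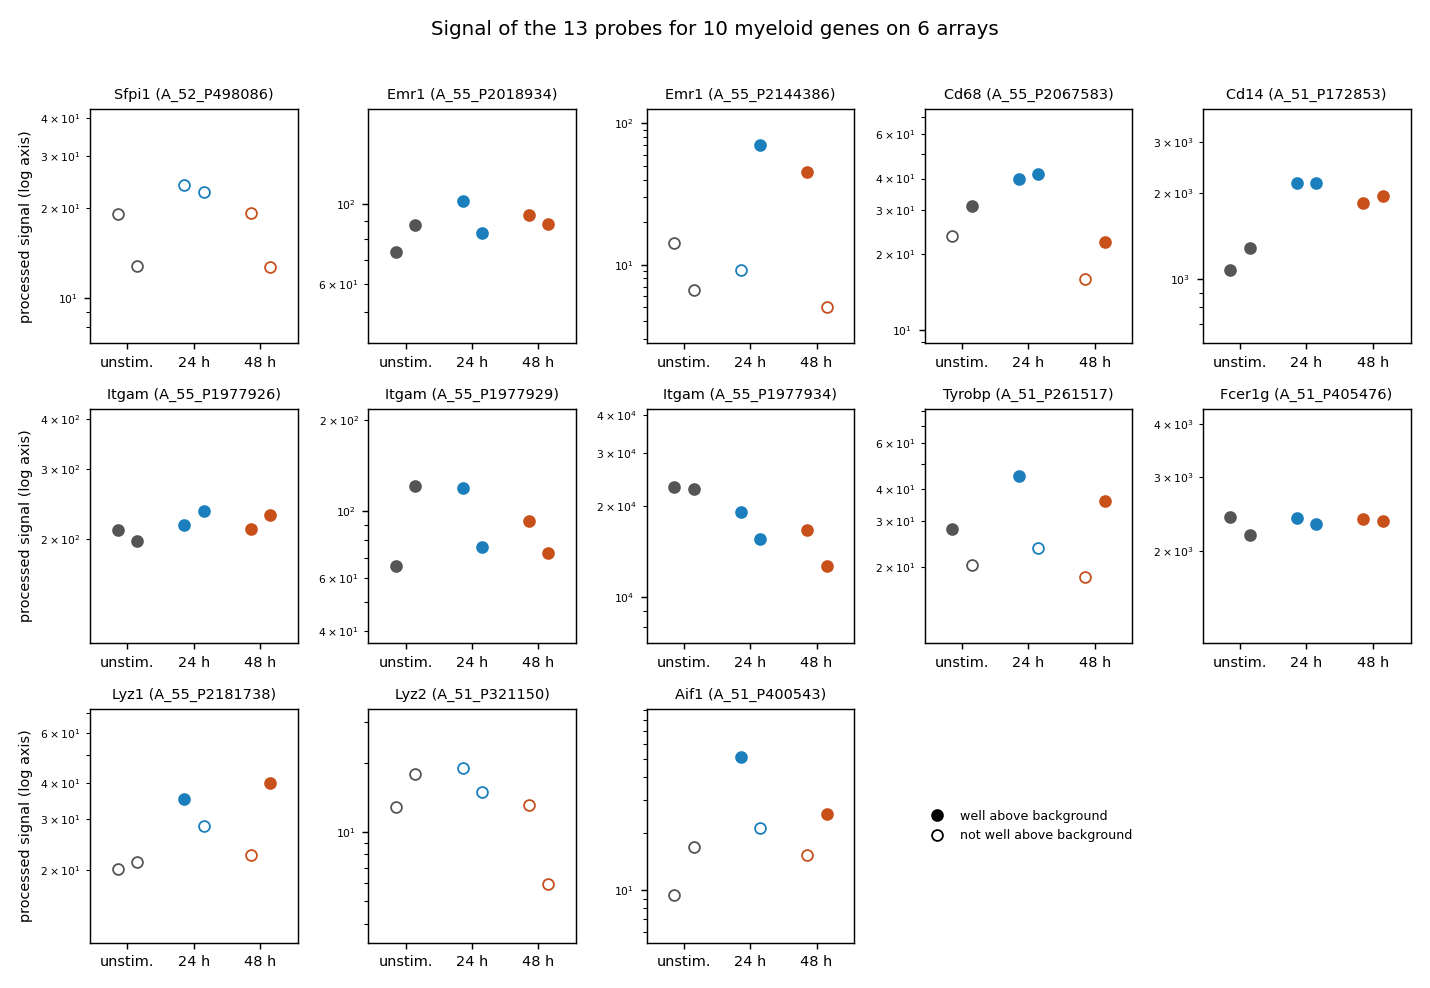
Processed signal of each of the 13 probes (log axis, a scale of its own in each panel) on the 2 unstimulated arrays (gray), the 2 arrays at 24 h (blue) and the 2 at 48 h (orange). Filled circles are well above background and open circles are not; Cd14 was higher on all 4 stimulated arrays than on both unstimulated arrays, and Sfpi1 and Lyz2 have open circles only.

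Sfpi1, which encodes the factor that commits cells to the myeloid lineage, had signals of 19.1 and 12.8 in unstimulated cells, 23.8 and 22.7 at 24 h and 19.2 and 12.7 at 48 h. None of these was well above background, so the arrays give only an upper bound for its transcript in either state. The lowest signals that passed as well above background lay between 17.8 and 31.1 on the 6 arrays. Lyz2, the lysozyme of macrophages, had signals of 12.9 and 17.8 in unstimulated cells, 18.9 and 14.8 at 24 h and 13.1 and 5.96 at 48 h, again not well above background on any array. These genes were not tested.

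Lyz1, the lysozyme of intestinal Paneth cells, had signals of 20.1 and 21.4 in unstimulated cells, 35.4 and 28.5 at 24 h and 22.6 and 40.2 at 48 h. Aif1 had signals of 9.43 and 16.9, then 50.7 and 21.5, then 15.4 and 25.2. Both genes were well above background on the first 24 h replicate and the second 48 h replicate only. These are the arrays that detected the most genes: of 1744 genes well above background on exactly 2 arrays, 875 (50.2%) were so on this pair. The part of this array difference in the Lyz1 and Aif1 values was not tested. Lyz1 and Lyz2 are near-identical neighbours, and a probe of one can take up transcript of the other.

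Tyrobp, the adaptor that couples many myeloid receptors to the kinase Syk, had signals of 28.1 and 20.4 in unstimulated cells, 45.0 and 23.7 at 24 h and 18.4 and 35.8 at 48 h. The signals of the groups overlapped. Tyrobp was well above background on 1 array of each group, so it was not tested. Fcer1g, an adaptor of the same kind for Fc receptors, was detected throughout, with signals of 2408 and 2180 in unstimulated cells, 2390 and 2313 at 24 h and 2387 and 2360 at 48 h. The groups overlapped, and the log2 difference was 0.026 ± 0.145 (SE) at 24 h (limma, adjusted p = 0.930) and 0.057 ± 0.145 at 48 h (limma, adjusted p = 0.835). The 95% interval ran from -0.34 to 0.39 at 24 h and from -0.31 to 0.42 at 48 h, so changes beyond these sizes lay outside it.

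**Figure D2:**
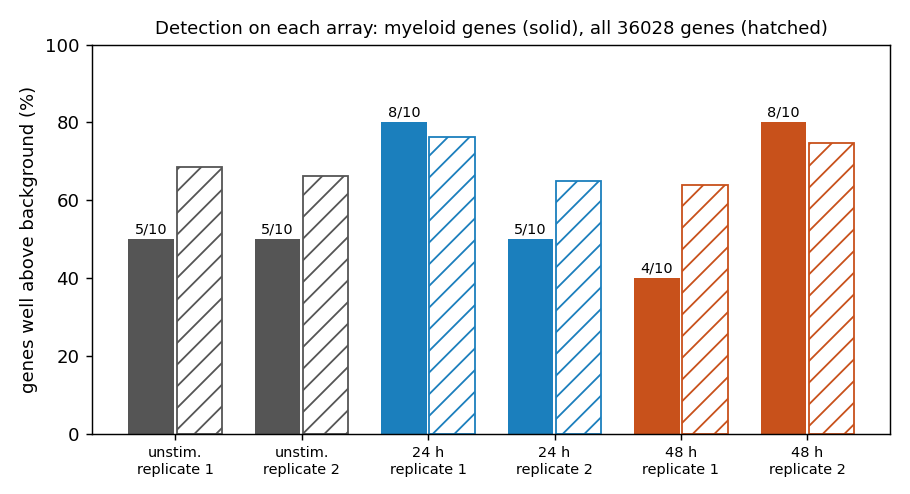
Share of genes well above background on each array (percent), for the 10 myeloid genes (solid bars, with counts) and for all 36028 genes (hatched bars). The first 24 h replicate and the second 48 h replicate stand above the other 4 arrays in both.

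Tests were run on the 5 myeloid genes that both arrays of some group detected well above background: Emr1, Cd68, Cd14, Itgam and Fcer1g. A gene was called at an adjusted p under 0.05 in limma's test, adjusted over all 24643 genes tested. Cd14 was called higher at both times and was the only one of the 5 to be called. Over all genes, 8.02% were called higher and 5.99% lower at 24 h, and 6.58% were called higher and 7.38% lower at 48 h. By an unadjusted p under 0.05 and a change of at least 2-fold, the thresholds of the study, 0 of the 5 were called, against 5.86% of all genes higher and 1.82% lower at 24 h and 4.66% higher and 1.82% lower at 48 h. At an unadjusted p under 0.05 alone, limma named 2 of the 5 at 24 h, Cd14 and Cd68. At 48 h it named 3 of the 5, Cd14, Cd68 and Itgam, the last through its probe with the CA run. Over all 24643 genes tested, 7717 passed this threshold at 24 h and 7611 at 48 h, so passing it was common.

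Cd14, which presents lipopolysaccharide to toll-like receptors, rose in stimulated cells. Its signals were 1082 and 1288 in unstimulated cells, 2169 and 2163 at 24 h and 1847 and 1945 at 48 h, all well above background. Every stimulated array lay above both unstimulated arrays. The log2 difference was 0.87 ± 0.108 (SE) at 24 h, 1.82-fold (limma, adjusted p = 0.0101), and 0.69 ± 0.108 at 48 h, 1.61-fold (limma, adjusted p = 0.0191). From 24 h to 48 h the log2 difference was -0.18 (limma, adjusted p = 0.531). The direction and size held without each array in turn, with log2 differences of 0.82 to 0.92 at 24 h and 0.64 to 0.74 at 48 h, but the calls did not. At 24 h the adjusted p was 0.0526 without the first unstimulated replicate, 0.0594 without the first 24 h replicate, which leaves a single slide, and 0.0556 without the second 24 h replicate. At 48 h it was 0.0927 and 0.0700 without the first or second unstimulated replicate, and 0.0884 and 0.0857 without the first or second 48 h replicate. The 48 h call was also lost with median centring (limma, adjusted p = 0.0508) and with no filter on dim probes (limma, adjusted p = 0.0768), and both calls with the t-test of the methods on single genes. After adjustment that t-test called 0 of all genes tested, so this loss is not particular to Cd14. Its unadjusted p for Cd14 was 0.00477 at 24 h and 0.00665 at 48 h (t-test). Across the 6 arrays the genes most alike to Cd14 by Pearson's r were Marcksl1 (0.998), Gm15401 (0.997) and Zfp52 (0.997), and 489 genes (3.53% of 13847 compared) had an r of at least 0.95, a description over arrays that share the same groups.

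Cd68, which encodes a glycoprotein of lysosomes and late endosomes, was dim and had differences of opposite sign at the labelled times. Its signals were 23.7 and 31.2 in unstimulated cells, 39.7 and 41.8 at 24 h and 16.0 and 22.4 at 48 h. It was well above background on both 24 h arrays and on 1 array of each other group, so it entered the test through the group in which it was highest. Both 24 h arrays lay above, and both 48 h arrays below, the unstimulated arrays. No difference passed the adjusted threshold. The log2 difference was 0.57 ± 0.166 (SE) at 24 h (limma, adjusted p = 0.0813), -0.51 ± 0.166 at 48 h (limma, adjusted p = 0.105) and -1.08 ± 0.166 from 24 h to 48 h (limma, adjusted p = 0.124, unadjusted p = 0.000941). In the comparison of 48 h with 24 h, 0% of all genes were called higher and 0% lower at an adjusted p under 0.05, the smallest adjusted p being 0.0621. At an unadjusted p under 0.05, 13.6% of all genes differed in either direction, and Cd68 was the one myeloid gene among them. The 24 h difference was 0.067 with quantile normalization and 0.060 with normexp and quantile normalization, and the 48 h difference was -0.10 with normexp and the 75th percentile.

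Emr1, whose product F4/80 is the classical surface marker of mouse macrophages, was detected on every array with no call at either time. The probe that stood for the gene gave 73.8 and 87.4 in unstimulated cells, 102.3 and 83.1 at 24 h and 93.2 and 88.0 at 48 h. The 24 h arrays overlapped with the unstimulated arrays, and the 48 h arrays lay just above them. The log2 difference was 0.19 ± 0.165 (SE) at 24 h (limma, adjusted p = 0.501) and 0.18 ± 0.165 at 48 h (limma, adjusted p = 0.522). The 24 h value was 0.0074 without the first 24 h replicate, 0.37 without the second, and 0.78 with the mean of the gene's probes, with no call. The 95% interval ran from -0.23 to 0.60 at 24 h and from -0.23 to 0.59 at 48 h. The other Emr1 probe (chr17:57622868-57622927, plus strand) gave 14.2 and 6.59, then 9.20 and 69.7, then 45.6 and 5.04, and was well above background on the second 24 h and the first 48 h replicate only. The replicates of that probe at 24 h and at 48 h lay far apart, and the groups overlapped. The genes most alike to the first Emr1 probe were Olfr62 (r = 0.993), Dpysl4 (0.989) and Ssxb9 (0.986) over the 6 arrays, and those most alike to Fcer1g were Brdt (0.994), ND6 (0.994) and 1700003G18Rik (0.992), given as a description.

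Itgam, the alpha chain of complement receptor 3, was well above background on all 6 arrays with each of its 3 probes, but the differences between groups were not alike over the probes. The probe with the CA run, which stood for the gene because it was the brightest, gave 23234 and 22854 in unstimulated cells, 19065 and 15564 at 24 h and 16742 and 12711 at 48 h. Every stimulated array lay below both unstimulated arrays. The log2 difference was -0.43 ± 0.224 (SE) at 24 h (limma, adjusted p = 0.264) and -0.65 ± 0.224 at 48 h (limma, adjusted p = 0.120). Without the second 48 h replicate the 48 h difference was -0.39, and without the second 24 h replicate the 24 h difference was -0.25. With median centring, with normexp background correction followed by the 75th percentile shift and with an intensity trend in the fit the 48 h difference passed the threshold (limma, adjusted p from 0.0364 to 0.0446), and under median centring the 24 h difference did too (limma, adjusted p = 0.0394). The probe A_55_P1977926 gave 211 and 198, then 217 and 235, then 212 and 230, with log2 differences of 0.13 at 24 h (limma on every probe, adjusted p = 0.546) and 0.12 at 48 h (adjusted p = 0.600). The probe A_55_P1977929 gave 65.8 and 120, then 119 and 75.9, then 92.7 and 72.6, with log2 differences of 0.083 (limma on every probe, adjusted p = 0.908) and -0.11 (adjusted p = 0.876). For these probes the stimulated and unstimulated arrays overlapped at both times.

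The values of the Itgam probe with the CA run resembled those of probes of unrelated genes that carry such a run. The motif searched was a run of CA or AC repeated at least 10 times on the probe strand, the number in the Itgam probe. Apart from Itgam, 23 of the probes on the array held one, and all 23 were well above background on all 6 arrays, against 52.9% of the 55354 other probes. All 23 were lower at both times, by log2 differences of -0.51 to -0.33 at 24 h (median -0.41) and -0.87 to -0.55 at 48 h (median -0.70). Of the other probes well above background on all 6 arrays, 42.5% were lower at both times, with medians of 0.015 and -0.060. Pearson's r with the Itgam probe over the 6 arrays lay between 0.947 and 0.999 for the 23, a description over arrays that share groups and slides. The 3 genes most alike to Itgam, Hexim2 (chr11:103001094-103001153, plus strand), Fgf23 (chr6:127030758-127030817, plus strand) and Idua (chr5:109112893-109112952, plus strand), were each read through such a probe. A window of 30 bases of each is shown beside the Itgam probe because the shared letters are what these probes have in common, with the run in capitals.
Hexim2: acacgCACACACACACACACACACAtgtat
Fgf23: cCACACACACACACACACACAtacatgtaa
Idua: CACACACACACACACACACAgagtctaaat

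The part of the run in the Itgam value was not tested. With the brightest Itgam probe that lacks such a run in its place, an alternative chosen after the data were seen, the gene's log2 difference was 0.13 at 24 h (limma, adjusted p = 0.535) and 0.12 at 48 h (limma, adjusted p = 0.584).

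**Figure D3:**
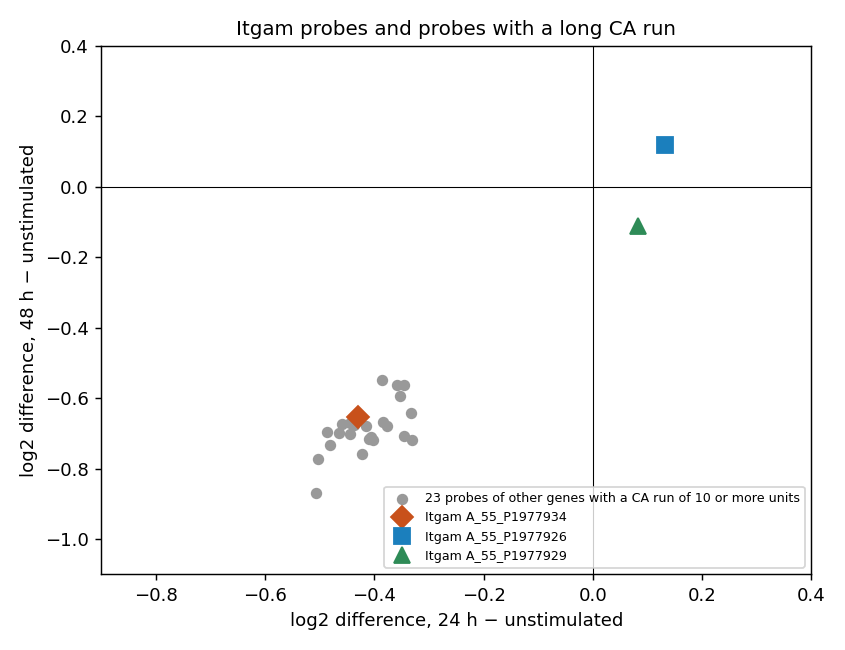
Log2 difference from unstimulated cells at 24 h (horizontal axis) and 48 h (vertical axis), for the 3 Itgam probes and for the 23 probes of other genes with at least 10 CA units (gray). The Itgam probe A_55_P1977934 lies among the gray points, and the other Itgam probes lie near 0.

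**Figure D4:**
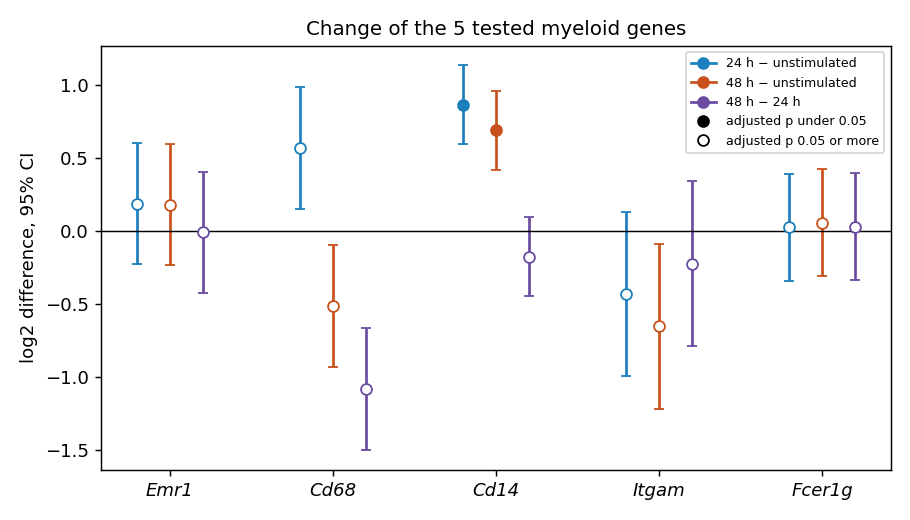
Log2 difference (vertical axis) of the 5 tested myeloid genes with 95% confidence intervals from limma, at 24 h and 48 h against unstimulated cells and at 48 h against 24 h. Filled circles have an adjusted p under 0.05, which holds for Cd14 at 24 h and 48 h; Itgam is shown with its CA-run probe.

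The wider macrophage program was followed in a list of 20 defining markers, to which 9 of the 10 genes above belong. Of the 20, 11 could be tested, 10 were well above background on all 6 arrays and Lyz2, Sfpi1 and C1qc on none. Cd14 and Mpeg1, which encodes a pore-forming protein of phagocytes, were called higher at both times, and 0 were called lower. Mpeg1 had log2 differences of 0.95 at 24 h (limma, adjusted p = 0.0281) and 3.12 at 48 h (limma, adjusted p = 0.00142). Ptprc, which encodes CD45 of leukocytes, had 0.68 (limma, adjusted p = 0.0873) and 0.15 (adjusted p = 0.685). Csf1r, the transduced receptor, had 0.22 (limma, adjusted p = 0.367) and -0.07 (adjusted p = 0.793). The summed signal of the markers relative to the 75th percentile was 79.3 and 79.6 in unstimulated cells, 77.9 and 75.8 at 24 h and 72.5 and 61.9 at 48 h. Bright probes weigh most in this sum. Without Itgam, read through its CA-run probe, the sum was 37.0 and 42.1, then 44.5 and 49.7, then 42.2 and 40.8, and the 48 h arrays overlapped with the unstimulated arrays. Most of that sum was Csf1r. The study detected its transcript in C2H cells before transduction, and the transduced transcript and the cells' own cannot be told apart here. Without both Itgam and Csf1r the sum was 7.69 and 7.08, then 9.87 and 9.28, then 10.93 and 10.94. Every stimulated array then lay above both unstimulated arrays. This sum still holds Cd14 and Mpeg1, the markers called higher. The log2 levels of Mpeg1 were -1.95 and -1.75, then -0.95 and -0.85, then 1.06 and 1.48. Those of Cd14 were 0.98 and 1.08, then 1.92 and 1.86, then 1.74 and 1.69. The sum was not taken without Cd14 and Mpeg1, so it does not show a rise of the other markers. Markers of other cell types were called in both directions. Of the 9 fibroblast markers, 7 were tested. Col1a1, Col1a2, Col3a1 and Pdgfrb were called lower at both times, Dcn was called higher at both and Pdgfra at 24 h. Of the 6 endothelial markers, 5 were tested, of which Cdh5 was called higher at both times and Vwf at 24 h. Of the 8 lymphocyte and 4 granulocyte markers tested, 0 were called by limma at either time. An unadjusted p under 0.05 was reached by 2 lymphocyte markers at each time, and by 2 granulocyte markers at 24 h but 0 at 48 h. Their part in the values above was not tested.

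The partners of the 10 genes were counted in 7 lists by role. Among the myeloid transcription factors, which act beside PU.1, 12 of 20 were tested, and 4 were called higher and 1 lower at 24 h and 2 higher and 0 lower at 48 h. Their median log2 difference was 0.46 at 24 h and 0.53 at 48 h, beside 0.037 and -0.044 over all genes tested. Cebpd, a C/EBP factor induced by inflammatory signals, rose by 2.70 at 24 h (limma, adjusted p = 0.0130) and 2.17 at 48 h (adjusted p = 0.0237) on the log2 scale. Egr2, a zinc finger factor of the monocyte lineage, rose by 1.999 (limma, adjusted p = 0.00316) and 1.18 (adjusted p = 0.0113). Maf was the factor called lower at 24 h, with a log2 difference of -1.80 (limma, adjusted p = 0.0232). Of the 20 factors, 11 were well above background on all 6 arrays and 3 on none.

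Among hematopoietic and macrophage surface receptors, 20 of 35 were tested, with 4 called higher at 24 h, 5 at 48 h and 0 lower, and medians of 0.26 and 0.15. Mrc1, the mannose receptor of macrophages, had log2 levels relative to the 75th percentile of -2.74 and -2.84 in unstimulated cells, 1.40 and 1.57 at 24 h and 0.72 and 0.82 at 48 h. It rose by 4.27 at 24 h (limma, adjusted p = 0.000845) and 3.56 at 48 h (adjusted p = 0.000928) on the log2 scale. Cd53, a leukocyte tetraspanin, was not well above background in unstimulated cells and was at least 17.3-fold higher at 24 h (limma, adjusted p = 0.00145) and at least 29.0-fold higher at 48 h (adjusted p = 0.000928). These lower limits set the mean of the stimulated arrays against the lowest signal well above background on each unstimulated array, or the probe's own signal if higher. Cd53, and Tlr3 and Ncf4 below, entered the test only through the stimulated groups, in which they were high. Their p-values are for the measured signals, including those not well above background, and not for the lower limits. Cd33, a sialic acid-binding receptor, was well above background on 1 unstimulated array and rose by 0.82 (limma, adjusted p = 0.0325) and 1.99 (adjusted p = 0.00331) on the log2 scale.

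The list of receptors and kinases that work with ITAM adaptors such as Tyrobp and Fcer1g held 34 genes. Of these 18 were tested, 2 were called higher at each time and 0 lower, with medians of 0.28 and 0.18. The 2 were Fyn, a Src family kinase, at 0.95 (limma, adjusted p = 0.0281) and 0.88 (adjusted p = 0.0342), and Ptpn6, the phosphatase SHP1, at 1.27 (adjusted p = 0.0277) and 1.16 (adjusted p = 0.0347). Of the 34 genes, 15 were well above background on all 6 arrays, 8 on some and 9 on none. Of receptors that signal through DAP12, Trem1, Siglech and Cd300lb were so on all 6 arrays and Sirpb1a on some. Trem2, Trem3, Clec5a, Klrk1 and Pilrb1 were so on none. These receptors were named after their values were seen.

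In the pathway of Cd14, 19 of 25 toll-like receptors and adaptors were tested, with 4 called higher and 1 lower at 24 h and 4 higher and 0 lower at 48 h, and medians of 0.31 and 0.15. Myd88, the common adaptor of these receptors, rose by 1.41 at 24 h (limma, adjusted p = 0.0139) and 1.08 at 48 h (adjusted p = 0.0280) on the log2 scale. Irak4, the kinase it recruits, rose by 0.98 (limma, adjusted p = 0.00779) and 0.75 (adjusted p = 0.0155). Tlr3, the receptor for double-stranded RNA, was not well above background in unstimulated cells and was at least 3.12-fold higher at 24 h (limma, adjusted p = 0.0117) and at least 7.19-fold higher at 48 h (adjusted p = 0.00540). Tlr4, the receptor to which Cd14 passes lipopolysaccharide, had log2 differences of -0.25 (limma, adjusted p = 0.499) and -0.09 (adjusted p = 0.819), and its partner Ly96 of 0.36 (adjusted p = 0.160) and 0.64 (adjusted p = 0.0444). Tlr4 and Ly96 were named after their values were seen.

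Beside the lysozymes, 10 of 20 granule and antimicrobial proteins were tested, with 3 called higher and 1 lower at each time and medians of 0.46 and 0.22. Slpi, a secreted protease inhibitor that epithelia also make, had log2 levels of -3.65 and -3.43 in unstimulated cells, 3.68 and 4.41 at 24 h and 2.91 and 3.90 at 48 h. It rose by 7.59 (limma, adjusted p = 0.00145) and 6.95 (adjusted p = 0.00142). Serpinb1a, an inhibitor of neutrophil proteases, rose by 1.89 (limma, adjusted p = 0.0101) and 2.65 (adjusted p = 0.00425), and Lcn2, an iron-sequestering lipocalin, by 1.84 (adjusted p = 0.00613) and 0.80 (adjusted p = 0.0475). Chi3l3, a chitinase-like protein of macrophages, was the gene called lower. Of the 20, 9 were well above background on all 6 arrays, among them the neutrophil granule genes Elane, Prtn3, Ctsg and Camp, and 6 on none, among them Mpo and Mmp8.

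Lysosomal and phagocyte genes, the group to which Cd68 belongs by function, had 32.1% of the tested genes called higher at 24 h and 39.3% at 48 h, beside 8.02% and 6.58% of all genes. The shares were 33.3% and 16.7% for the transcription factors and 20% and 25% for the surface receptors. At both times they were 30% for granule proteins, 21.1% for the CD14 pathway, 11.1% for ITAM partners and 0% for integrin partners. Genes that entered the test only through stimulated groups, in which they were high, count in these shares. Among them are Cd53, Tlr3 and Ncf4, and at 48 h the lysosomal gene Ctss. Of 34 genes 28 were tested, with 9 called higher and 1 lower at 24 h and 11 higher and 1 lower at 48 h, and medians of 0.34 and 0.44. Plek, which encodes a protein kinase C substrate of blood cells, rose by 3.63 (limma, adjusted p = 0.00145) and 4.60 (adjusted p = 0.000928) on the log2 scale. Acp5, the acid phosphatase of osteoclasts and macrophages, rose by 2.62 (limma, adjusted p = 0.00957) and 2.49 (adjusted p = 0.0111). Ncf4, a subunit of the phagocyte oxidase, was not well above background in unstimulated cells and was at least 1.89-fold higher at 24 h (limma, adjusted p = 0.0196) and at least 3.07-fold higher at 48 h (adjusted p = 0.0106). Lgals3 was called lower at 24 h and Lamp3 at 48 h.

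For Itgam, 10 of 16 integrin partners and ligands were tested and 0 were called at either time, with a median of 0.15 at both. Itgb2, the beta chain that pairs with CD11b, was well above background on all 6 arrays, with log2 differences of -0.03 at 24 h (limma, adjusted p = 0.879) and -0.40 at 48 h (adjusted p = 0.0646). These lists were compared with all genes by counts and medians only, without a test.

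The calls of single list genes differed in how far they rested on 1 array. Without each of the 6 arrays in turn, Mrc1, Cd53, Slpi, Plek and the endothelial marker Cdh5 were called higher at both times in all 6 cases. Every other gene named from the lists and markers as called at both times lost a call in at least 1 case, with the same direction throughout. Mpeg1 was called in all 6 cases at 48 h and in 2 of 6 at 24 h, and Tlr3 likewise. The number of lysosomal and phagocyte genes called higher ran from 1 to 8 at 24 h and from 5 to 9 at 48 h, and that of the surface receptors from 3 to 4 and from 4 to 5. For the ITAM partners it ran from 0 to 3 and from 0 to 1, and for the CD14 pathway from 0 to 4 and from 1 to 2. For the transcription factors it ran from 1 to 4 and from 0 to 2, and for the granule proteins from 2 to 3 at both times.

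**Figure D5:**
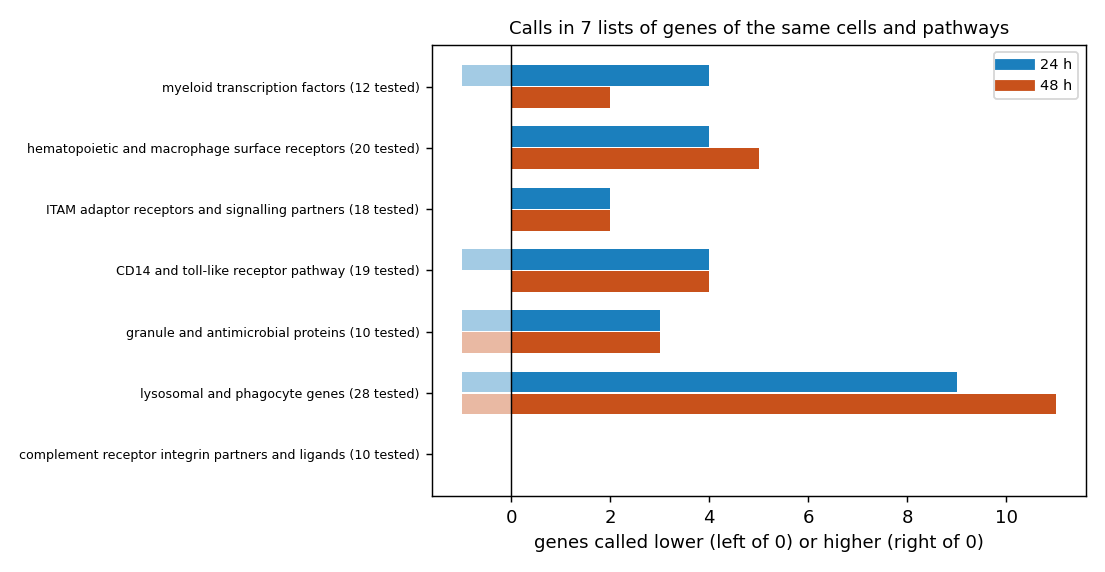
Number of genes called lower (pale bars, left of 0) or higher (right of 0) at an adjusted p under 0.05 in 7 lists, at 24 h (blue) and 48 h (orange), with the number tested in each list. Lysosomal and phagocyte genes have 9 and 11 genes called higher, and the integrin partners have 0.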

How the data were processed

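Expression was measured on 6 single-color Agilent mouse arrays of N18-Fms cells. The authors deposited Feature Extraction 11.0.1.1 output, with linear intensity for each spot, background-subtracted and detrended and not normalized between arrays, and with unsubtracted mean and background intensities. The authors also deposited log2 values for part of the probes, whose baseline for each probe is not given; they served as an alternative. Comparison software is named in the study's methods, without a normalization.

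Here, outlier-flagged spots were left out, repeated spots were averaged, and log2 signals were expressed relative to the 75th percentile of their array. The flags removed 303 probes. The brightest probe stood for a gene. A gene was tested if both arrays of some group detected it well above background (24643 of 36028), which was done in R 4.3.3 with limma 3.58.1 (lmFit, eBayes, 2-sided, 3 residual and 2.39 prior degrees of freedom), adjusted by Benjamini-Hochberg over all genes tested. The files were read with the R package data.table, version 1.17.8. The fit was run on simulated data with changes of 3 log2 units. These are larger than the changes of the tested myeloid genes, so that run does not show whether changes of their size are found.

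The members and lists were chosen with earlier results of these data known. All 10 genes were named, and up to 3 genes of each list with the largest mean change among those called in 1 direction at 24 h and 48 h whose stimulated arrays all lay outside the range of the unstimulated arrays, and the 3 genes most alike to each member detected on all arrays. List genes matched the files by symbol or through the accessions and synonyms that RefSeq gives. Of them, 4 had no match, and the C1qb probe was among those removed. Some genes of the lists are not reported here.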

Additional observations from a re-analysis of the deposited data

Results flagged for a closer look

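Cd68 is set apart because its effects at the labelled times ran in opposite directions: both 24 h arrays lay above, and both 48 h arrays below, both unstimulated arrays. The log2 difference between 48 h and 24 h was -1.08 (limma, adjusted p = 0.124, unadjusted p = 0.000941), so the difference itself did not pass the adjusted threshold. The probe was dim, well above background on 4 of the 6 arrays, and entered the test through the 24 h group, in which it was highest. The 24 h difference of 0.57 was 0.067 with quantile normalization and 0.060 with normexp and quantile normalization. With normexp background correction the difference between 48 h and 24 h was -0.37 after the 75th percentile shift and -0.20 after quantile normalization.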

How the results depend on the processing

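The alternatives were other background corrections and normalizations, the authors' log2 values, other filters, probe rules and fits, and leaving out each array with the genes tested held fixed. A lone array was assumed to vary like the other groups. The number of myeloid genes called higher at 24 h was 0 with the methods' t-test and with an unadjusted p and 2-fold change, and at 48 h it was 0 with these, with median centring and with no filter on dim probes, Cd14 then missing the threshold. Without each array it ran from 0 to 1 at both times. The number called lower was 1, Itgam through its CA-run probe, at 24 h with median centring and at 48 h with median centring, normexp with the 75th percentile, and the intensity trend. The number called between 48 h and 24 h was 1, Cd68, with an unadjusted p and 2-fold change.

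Same-numbered arrays deviated together with r of 0.128 (unstimulated and 24 h), 0.094 (unstimulated and 48 h) and 0.199 (24 h and 48 h). The labels do not say whether the number names the experiment, and the main fit left it out. Correlations this low over all genes do not show that the arrays are unpaired. With the replicate number as a block, 3801 genes were called at 24 h against 3453 without it and 3966 against 3440 at 48 h, and the myeloid genes called lower at 48 h became 1, Itgam.

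Over all genes, the calls at 24 h were 1319 with no filter, 0 with the methods' t-test, 1893 with an unadjusted p and 2-fold change, and 899 to 2538 without each array. At 48 h they were 870 with no filter, 5477 with the intensity trend, 2114 with only the 2 groups compared, 0 with the methods' t-test, 1597 with an unadjusted p and 2-fold change, and 889 to 2114 without each array. Between 48 h and 24 h they were 0, and 6 with quantile normalization, 5 with median centring, 210 with normexp and the 75th percentile, 315 with normexp and quantile normalization, 5 with all 6 arrays well above background, 195 with the intensity trend, 560 with an unadjusted p and 2-fold change, and 0 to 11 without each array. The methods' t-test at its own thresholds called 992 genes higher and 360 lower at 24 h and 826 and 335 at 48 h, with 0 after adjustment.

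Over all alternatives the genes called higher at 24 h and 48 h ran from 0 to 12 and 0 to 16 for the lysosomal list, 0 to 5 and 0 to 5 for surface receptors, 0 to 4 and 0 to 4 for ITAM partners, 0 to 6 and 0 to 5 for the CD14 pathway, 0 to 5 and 0 to 3 for transcription factors, 0 to 3 at both times for granule proteins and 0 to 2 and 0 to 1 for integrin partners. The genes called lower ran from 0 to at most 3 in each list. The methods' t-test, which called 0 genes after adjustment, gives the minimum of 0 in every list. The medians of the surface receptors, ITAM partners and integrin partners fell as low as -0.03, -0.0033 and -0.14 at 24 h, and that of the ITAM partners to -0.03 at 48 h, and the other list medians stayed above 0.

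Values near 0 changed sign. Median centring moved the median of all genes to -0.25 at 24 h and -0.14 at 48 h, and gave Emr1 -0.10 at 24 h and 0.18 between 48 h and 24 h, Fcer1g -0.26 at 24 h and -0.042 at 48 h, and Cd14 0.0084 between 48 h and 24 h. Emr1 was -0.036 at 24 h with normexp and quantile normalization. Between 48 h and 24 h Emr1 was 0.094 with quantile normalization, 0.054 with normexp and quantile normalization, 0.00014 with the authors' log2 values and 0.0014 with the slide as a random block. Without each array, the difference between 48 h and 24 h ran from -0.19 to 0.17 for Emr1, -0.48 to 0.040 for Itgam and -0.040 to 0.10 for Fcer1g, and Fcer1g ran from -0.12 to 0.17 at 24 h and -0.090 to 0.20 at 48 h. Itgam turned to 0.13 at 24 h and 0.12 at 48 h with the brightest probe free of a long CA run. The cause of the other changes was not tested.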
